A study of Rattus norvegicus with 20 samples.

Results

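The mir-29 family was followed across rat tissues as the rows of 3 stacked annotation lists whose names begin with mir-29a, mir-29b or mir-29c. These were 6 of 444 precursor rows, 6 of 577 mature rows and 4 of 388 RefSeq rows, out of 1409 rows in all. Each library held small RNA from untreated male Long Evans Hooded rats at postnatal day 35. Brain was sampled as 3 single hemispheres and serum as 3 single samples. The 14 other tissues were each 1 library that pooled RNA from 3 rats, namely fat, heart, kidney, large intestine, liver, lung, skeletal muscle, pancreas, skin, small intestine, spleen, stomach, testes and thymus. All material came from the same cohort of 3 rats, so the pools have no replicates and are not independent of the brain libraries. Levels are given as RPM, the usual depth-scaled read count, relative to the total of the row's own list, and the same reads were counted again in each list.

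MicroRNAs are cut from a hairpin precursor, whose 2 sides give a 5p arm and a 3p arm. The 3p arms of the mir-29 family are the known active forms. They repress messages that carry a match to the seed, the bases from position 2 to 8 of the mature strand. The family is known for repression of collagens and other matrix genes and of the DNA methyltransferases Dnmt3a and Dnmt3b, and in the brain for its rise as neurons mature.

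The 3p arms are shown because they carried nearly all reads that were placed on an arm and because near identity among them bears on how reads were shared out. All 6 mature rows matched RefSeq entries by name, and the sequences are those of RefSeq on GRCr8, written 5′ to 3′, with the seed in capitals.
miR-29a-3p: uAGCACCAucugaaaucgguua
miR-29b-3p: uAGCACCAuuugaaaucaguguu
miR-29c-3p: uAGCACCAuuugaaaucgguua
The seed AGCACCA was found in 4 of 724 mature entries of the RefSeq table, which hold 3 different sequences, all from this family. Counted from 1 at the 5′ end, miR-29c-3p differed from miR-29a-3p by the single substitution C10U. From miR-29c-3p to miR-29b-3p there were 3 substitutions over the 22 compared bases, G18A, U21G and A22U, and miR-29b-3p is 1 base longer at 23 bases.

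The family lies in 2 clusters, placed here on GRCr8 while the deposited counts were made on Rn5. Mir29a (chromosome 4, 60617955 to 60618042) and Mir29b1 (60618334 to 60618414) lie on the minus strand between the protein-coding genes Klf14 and Mkln1. Mir29b2 (chromosome 13, 109098831 to 109098911) and Mir29c (109099359 to 109099446) lie on the plus strand between Cd34 and Cd46, inside the annotated locus LOC102550527. The same mature miR-29b-3p is annotated in both clusters, so its reads cannot be traced to either locus from the sequence.

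The rows of the family were not separate measurements. The RefSeq row Mir29b2 equalled the sum of precursors mir-29b-2 and mir-29b-3, and Mir29c the sum of mir-29c-1 and mir-29c-2, in 20 of 20 libraries within 0.001 read. Of 581 reads over all libraries, 47.2% were given to mir-29b-2 (95% Wilson interval 43.1 to 51.2%), and of 1814 reads, 48.8% were given to mir-29c-1 (46.5 to 51.1%). Each pair was treated as near-identical copies whose reads were split about evenly, and is given summed below as mir-29b and mir-29c. The precursor mir-29b-1 reached at least 1 read in 3 of 20 libraries, with 5 reads in all. An antisense precursor, mir-3587, lies over Mir29b1 and held 28 reads in 7 libraries, none of which had a read of mir-29b-1. These are estimated counts, given almost wholly to 1 row of the pair. In brain 1 mir-3587 was given 12.0 and mir-29b-1 5.4e-05, and in heart 1.65e-10 and 2. The split therefore does not show the strand of the reads. Without a statement that strand was used in counting, reads of mir-29b-1 and mir-3587 cannot be told apart, and mir-29b-1 is left as uncertain. Antisense mir-3556a and mir-3556b lie over Mir29a and Mir29c, and as precursors they held at most 0.0014 and 0.035 reads in any library.

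Depth differed widely between the groups. The precursor list held 388275 to 1204552 reads in the brain libraries, 162080 to 3685761 in the pools and 7556 to 10862 in serum. The tissue labels were compared with marker miRNAs: the 12 neuron miRNAs summed to 59469 RPM in brain, and mir-122, the main hepatocyte miRNA, reached 14726 RPM in liver. The library labelled pancreas went against its label. It held 0 reads of mir-216a, 1 read of mir-216b and 0 reads of mir-217, the defining pancreas miRNAs, and 14862 RPM of mir-122. It is called the library labelled pancreas throughout. In the small intestine 1 miRNA, Mir215, took 50.3% of the RefSeq list and had no precursor row, so that mir-29a stood there at 245 RPM in the precursor list and at 127 RPM in the RefSeq list. The precursor list had dominant rows too. There mir-143 took 611902 RPM in stomach, and mir-143 plus mir-145 took 318244 in large intestine and 308669 in small intestine. In small intestine mir-192 took 324177 RPM. These tissues were the lowest pools for mir-29a in RPM, and the part of the dominant rows in that was not tested.

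Precursor mir-29a was the main member in every library, and brain was the tissue with the highest RPM, a rank that was lost under DESeq2 size factors. The 3 hemispheres held 2032, 1929 and 1252 RPM of mir-29a, a mean of 1738 ± 424 (SD, n = 3). The 14 pools ran from 245 RPM in small intestine (95% Wilson interval 205 to 295) to 722 RPM in spleen (616 to 845), with a median of 379. All 3 hemispheres lay above all pools, and the lowest hemisphere was at 1.74 times spleen. Spleen was followed by heart (660 RPM), fat (592), lung (545), liver (537), testes (457) and skin (425), and each pool's interval overlapped that of the next in the order. Spleen and small intestine, the ends of the order, did not overlap. This order of the pools held in RPM only. The highest and lowest pools were liver and skin under TMM, and heart and skeletal muscle under DESeq2 size factors.

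Precursor mir-29b was the member with the widest range among tissues. The hemispheres held 174, 173 and 103 RPM, a mean of 150 ± 40.9 (SD, n = 3), and all lay above every pool. The Wilson interval of spleen, the highest pool, was 39.1 to 110 RPM and includes the lowest hemisphere. That hemisphere and spleen thus did not separate, while the hemispheres at 174 and 173 RPM lay above the interval. The pools ran from 6.13 RPM in fat to 65.6 in spleen, a 10.7-fold range, with a median of 15.6. Heart (55.6 RPM) and thymus (41.0) followed spleen. Under TMM and under DESeq2 size factors thymus was the highest pool, and fat was again the lowest. These values rest on few reads, 3 in fat, 3 in liver and 14 in spleen.

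Precursor mir-29c had another order of tissues. The hemispheres held 421, 422 and 252 RPM, a mean of 365 ± 97.7 (SD, n = 3). The pools ran from 36.3 RPM in small intestine to 237 in kidney, a 6.53-fold range with a median of 78.5. Kidney was followed by liver (207 RPM), the library labelled pancreas (198) and heart (167). Kidney stayed the highest pool under the other scalings, while the lowest was lung under TMM and fat under DESeq2 size factors. The lowest hemisphere was at 1.06 times kidney, whose interval of 202 to 279 RPM includes it, so brain and kidney did not separate, and under TMM and DESeq2 size factors kidney stood above brain.

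**Figure D1:**
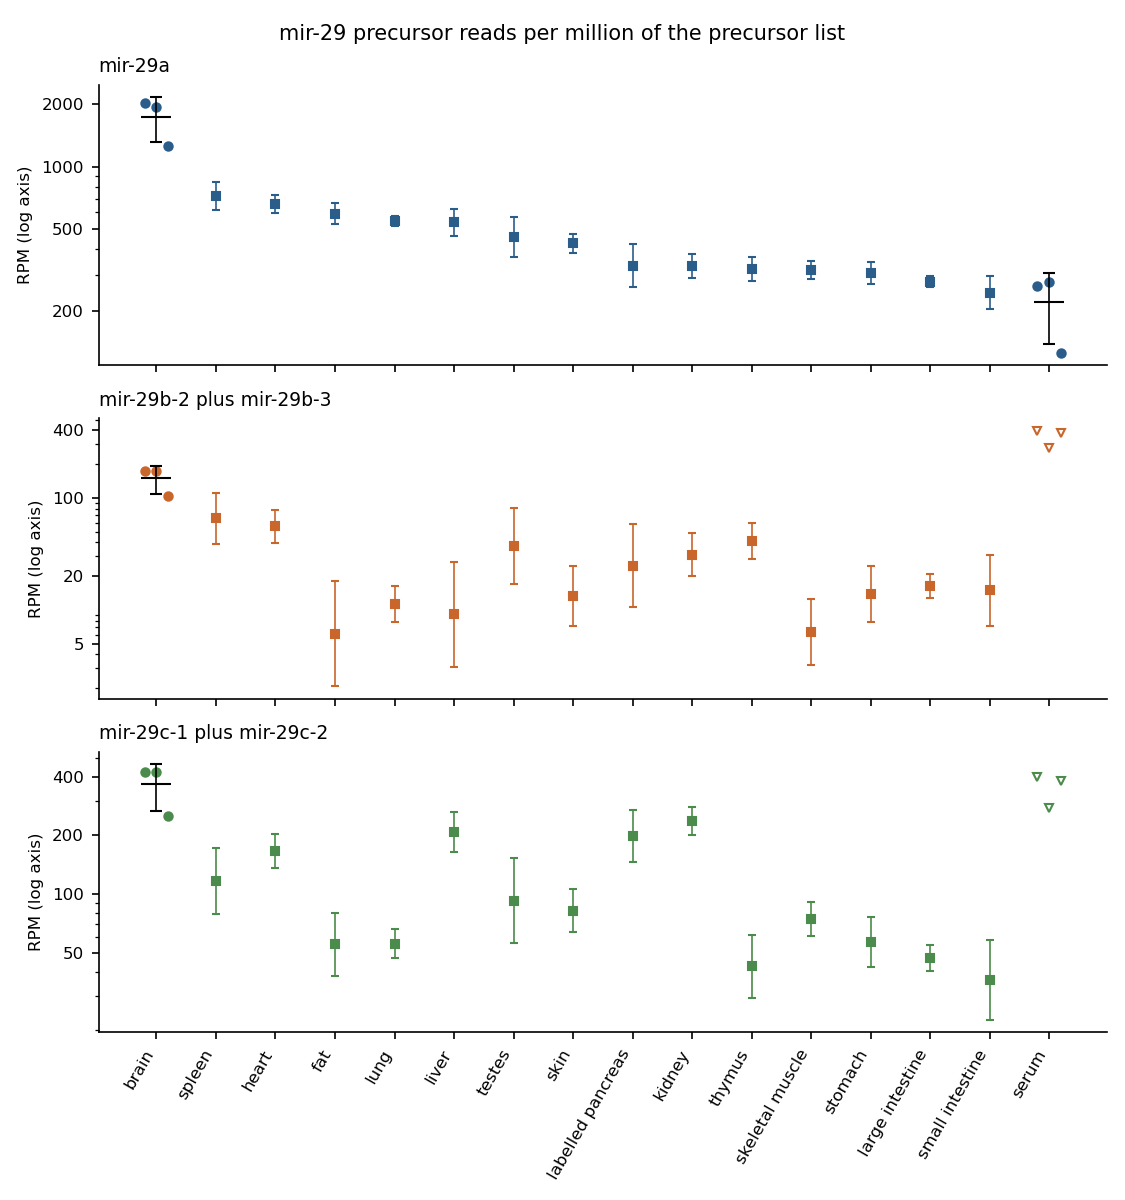
RPM of mir-29a, mir-29b (mir-29b-2 plus mir-29b-3) and mir-29c (mir-29c-1 plus mir-29c-2) in the precursor list, on log axes, by tissue. Circles are single brain and serum libraries, black bars their mean ± SD, squares the pools with 95% Wilson intervals, and open triangles the limit of 3 reads in serum libraries with no read. In RPM brain stands highest of the 15 tissues in each panel, at 1738, 150 and 365 RPM, and kidney is the highest pool for mir-29c only.

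The third hemisphere was lower than the other two for each member. It held 0.632 times the mean of hemispheres 1 and 2 for mir-29a, 0.592 times for mir-29b and 0.599 times for mir-29c. It was also the shallowest brain library, with 486 reads of mir-29a against 2448 and 1101. The part of depth in this difference was not tested.

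How far brain stood above the pools depended on the scaling. In RPM, the brain mean over the pool median was 2.20 ± 0.38 on the log2 scale for mir-29a, 3.19 ± 0.43 for mir-29b and 2.20 ± 0.43 for mir-29c (SD of the 3 hemispheres). The median over all 295 precursors with enough counts was itself 1.78, so the members stood 0.41, 1.40 and 0.42 above that shift. Under TMM, a scaling that sets the bulk of the rows equal, the 3 values were 1.02, 1.49 and 1.44 against a median of 0.83. Under DESeq2 size factors they were 0.21, 0.87 and 0.59 against a median of 0.01, and brain ranked at 4 of 15 tissues for mir-29a and mir-29b. For mir-29c brain ranked at 4 already under TMM, at 238 against 455 in kidney and 394 in the library labelled pancreas, and at 5 under DESeq2 size factors, at 143 against 413 in kidney. The brain means of the members thus stood above the middle precursor under all 3 scalings, by 0.19 to 1.40. Several of these distances were smaller than the SD of the 3 hemispheres. For mir-29a they were 0.19 under TMM (SD 0.64) and 0.20 under DESeq2 size factors (SD 0.34). Under TMM they were 0.66 for mir-29b (SD 0.67) and 0.60 for mir-29c (SD 0.67). In RPM the distance of 0.42 for mir-29c was also within its SD of 0.43. The first rank of brain held in RPM and TMM for mir-29a and mir-29b, and in RPM only for mir-29c.

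In the mature list the same comparison gave 1.92, 3.03 and 2.30 for miR-29a-3p, miR-29b-3p and miR-29c-3p in RPM, against a median of 1.34 over all 291 rows. Under DESeq2 size factors the values were 0.47, 1.11 and 0.99 against −0.10. Over the 3 scalings the distance from the median was between 0.55 and 0.58 for miR-29a-3p, 1.13 and 1.69 for miR-29b-3p, and 0.96 and 1.08 for miR-29c-3p. miR-29b-3p had the greatest distance of the 3 in each case.

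**Figure D2:**
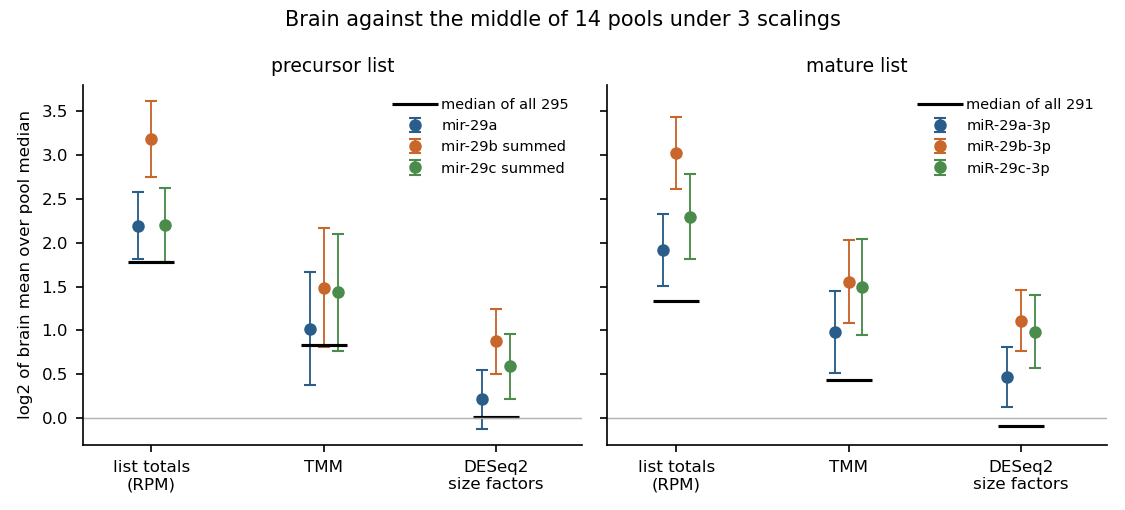
Log2 of the brain mean over the median of 14 pools for each member under list totals (RPM), TMM and DESeq2 size factors, in the precursor list (left) and the mature list (right), with the SD of the 3 hemispheres. The black dash is the median over all rows with enough counts, which falls from 1.78 to 0.01 in the precursor list, and the members fall with it.

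All 3 hemispheres lay above all 14 pools in RPM for 4 of the 5 member precursors with enough counts, mir-29a, mir-29b-2, mir-29b-3 and mir-29c-2. That held for 36.3% of the 295 precursors. Among mature arms it held for miR-29a-3p and miR-29b-3p, beside 28.6% of 290 rows. It held for no member under TMM, where it held for 20.0% of precursors and 20.3% of mature rows, or under DESeq2 size factors, where it held for 14.6 and 14.8%.

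The test of brain against the pools, with the hemispheres summed to 1 library and the spread taken between the 14 tissues, called no member. edgeR's quasi-likelihood test called 4.88% of 246 precursors, all higher in brain, and 2.92% of 240 mature rows. For mir-29a the log2 fold change was 1.02 (SE 0.58, adjusted p = 0.415), beside a median of −0.44 over all precursors tested. The members mir-29b-2 and mir-29b-3 stood at 1.40 (SE 1.03, adjusted p = 0.445) and 1.74 (SE 1.03, adjusted p = 0.415), and mir-29c-1 and mir-29c-2 at 0.69 and 0.84. With 1 brain library the test has little power, and a missed threshold does not show that levels were alike. At an unadjusted p under 0.05, 36 precursors passed, none of them a member, and among mature arms miR-29a-3p did (log2 fold change 1.31, SE 0.59, unadjusted p = 0.0417, adjusted p = 0.381), with 30 of the 240 mature rows. DESeq2 called miR-29a-3p (adjusted p = 0.00655), where it called 7.08% of mature rows higher in brain. With the hemispheres entered as 3 libraries, which share a tissue, mir-29a (0.90, adjusted p = 0.0484) and mir-29b-3 (1.68, adjusted p = 0.0349) were called, where 24.1% of 295 precursors were called higher in brain.

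The make-up of the family was compared by its 3p arms, since a share within a library does not depend on its scaling, and the arms are of 22 or 23 bases. In brain, miR-29a-3p made up 76.4% ± 0.689 of the 3p reads, miR-29b-3p 7.99% ± 0.097 and miR-29c-3p 15.6% ± 0.727 (SD, n = 3). The third hemisphere, low in RPM for each member, had shares of 77.2%, 8.03% and 14.8%, with Wilson intervals that overlapped those of the other two hemispheres for each arm.

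In kidney and the library labelled pancreas miR-29c-3p made up a far larger share of the 3p reads than in brain. Its level in RPM was not higher there, at 285 and 247 beside a mean of 327 in brain. As a share, miR-29c-3p in kidney was 38.2% of 283 reads of 3p arms (95% Wilson interval 32.7 to 43.9%). In the library labelled pancreas it was 39.7% of 78 reads (29.6 to 50.8%). Liver followed with 24.7% of 146 reads (18.4 to 32.2%) and heart with 19.5% of 364 reads (15.8 to 23.9%). The lowest shares were in lung, with 8.87% of 947 reads (7.22 to 10.9%), and fat, with 8.96% of 212 reads (5.81 to 13.6%). The intervals of kidney, the library labelled pancreas and liver lay wholly above that of brain, 14.8 to 17.0% for the summed hemispheres, and those of lung, fat and large intestine wholly below it. As a ratio, there were 0.692 reads of miR-29c-3p per read of miR-29a-3p in kidney, 0.205 ± 0.011 in brain (n = 3) and 0.1 in lung.

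The precursor list gave the same 3 tissues at the top. There mir-29c was 41.8% of the mir-29a and mir-29c reads in kidney, 37.4% in the library labelled pancreas, 27.9% in liver and 17.3% in brain. Kidney, liver and the library labelled pancreas also shared high sums of the gut and kidney miRNAs (mir-192, mir-194-1 and mir-194-2), at 123064, 233192 and 236256 RPM. The small intestine had the highest sum, 350309 RPM, and a miR-29c-3p share of 11.9% (7.10 to 19.3%). The part of shared cell types in the shares was not tested. In testes, where 9.01% of the 3p reads were miR-29c-3p, this rests on 6.04 reads beside 3.96 reads given to the antisense miR-3556b.

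**Figure D3:**
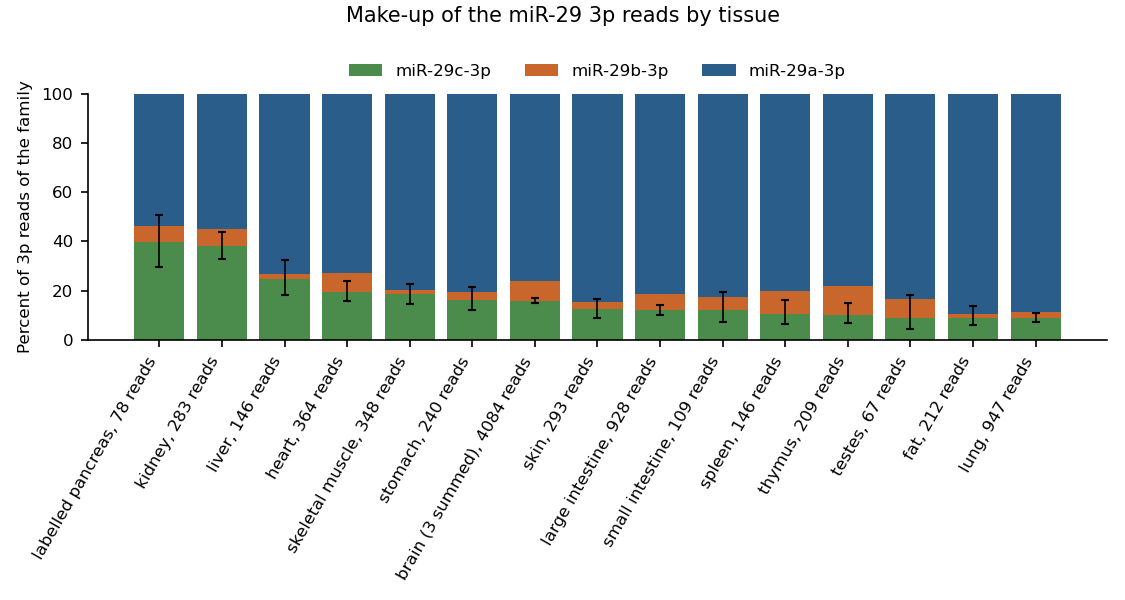
Percent of the 3p reads of the family that were miR-29a-3p, miR-29b-3p and miR-29c-3p, by tissue, ordered by miR-29c-3p; black bars are 95% Wilson intervals of the miR-29c-3p share. The library labelled pancreas (39.7%) and kidney (38.2%) lead, and fat (8.96%) and lung (8.87%) are last.

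Mir29b2 and Mir29c lie in 1 cluster on chromosome 13, yet miR-29b-3p and miR-29c-3p did not keep a fixed proportion. miR-29b-3p was 33.8% ± 1.21 (SD, n = 3) of the sum of both in brain. It was 54.3% in thymus (25 of 46 reads, interval 40.2 to 67.8%) and 48.3% in spleen (31.4 to 65.6%). It was 15% in kidney (9.79 to 22.2%), 8.57% in skeletal muscle (3.99 to 17.5%) and 7.69% in liver (2.65 to 20.3%). The intervals of these tissues, and those of lung, stomach and the library labelled pancreas, lay below that of the summed hemispheres (30.6 to 36.5%), and that of thymus lay above it. Since miR-29b-3p is also annotated in Mir29b1, on chromosome 4, this proportion is not that of 1 locus.

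The 4 leukocyte miRNAs (mir-142, mir-150, mir-155 and mir-223) summed to 65829 RPM in thymus and 62260 RPM in spleen, the highest of the 15 tissues, and to 620 RPM in kidney, 353 in brain and 4564 in liver. Fat had the next highest leukocyte sum, 13730 RPM, with a miR-29b-3p proportion of 13.6% (4.75 to 33.3%), and testes, at 555 RPM, had 45.3% (21.3 to 72.0%). The large intestine, with 35.5% miR-29b-3p (28.7 to 42.9%), stood near brain. The part of leukocytes in the proportion was not tested, and fewer cells of a type and less RNA per cell cannot be told apart in these bulk libraries.

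**Figure D4:**
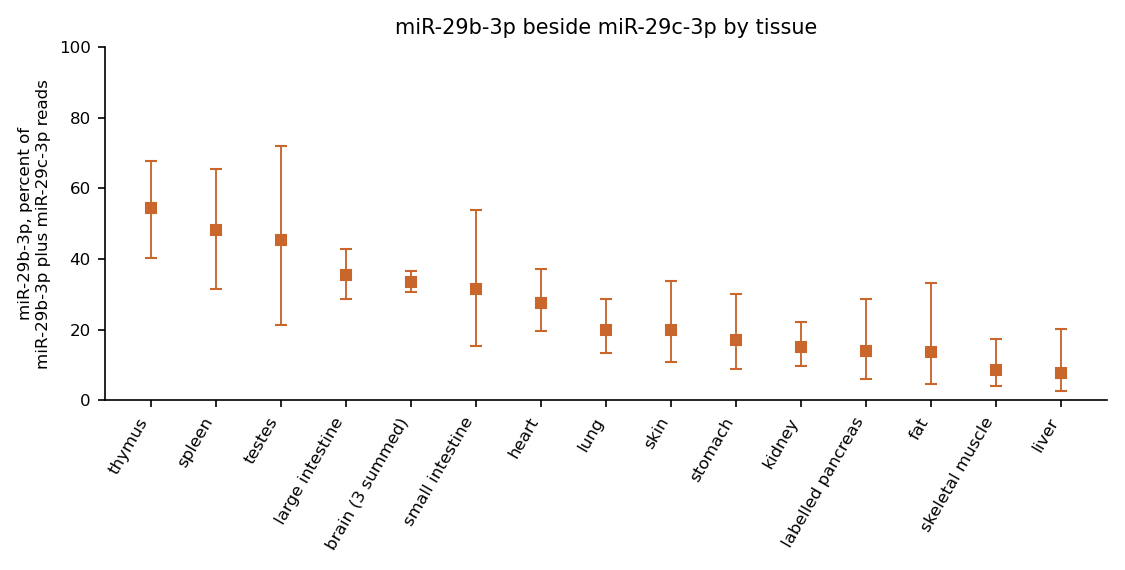
Reads of miR-29b-3p as a percent of miR-29b-3p plus miR-29c-3p reads, by tissue, with 95% Wilson intervals. Thymus (54.3%) is highest, brain stands at 33.5% for the 3 hemispheres summed, and liver (7.69%) is lowest.

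The 5p arms were almost absent. For miR-29a they took 17 reads against 6614 of the 3p arm over the 20 libraries, 0.256% (95% Wilson interval 0.160 to 0.410%). For miR-29b the 5p arm took 1 read against 539, and for miR-29c 7 against 1303, 0.534% (0.259 to 1.10%). In RefSeq miR-29b-5p is the arm of Mir29b2 only, while miR-29b-3p is annotated in both clusters. The 5p arm of Mir29b1, miR-29b-1-5p, was not among the mature rows, so its reads are not in this count. The most 5p reads in a library were 6 of miR-29a-5p in skeletal muscle, 2.11% of the miR-29a reads there (0.972 to 4.53%).

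Not all precursor reads of mir-29a and mir-29c were placed on a mature arm. For mir-29a the mature reads came to 75.1 to 79.0% of the precursor reads in brain and to 60.8% (liver) to 79.4% (stomach) in the pools. For mir-29c the range was 71.4 to 78.1% in brain and 40.3% (testes) to 86.7% (stomach) in the pools. For mir-29b it was 91.9 to 95% in brain and 72.7% (stomach) to 102% (large intestine, 61 mature against 60 precursor reads) in the pools. The share of the member fell below the share of its whole library in 11 of 17 tissue libraries for mir-29a, in 13 for mir-29c and in 2 for mir-29b. In thymus the order of mir-29b and mir-29c turned between the lists, with 41.0 and 42.5 RPM as precursors and 47.2 and 39.7 RPM as 3p arms, and both pairs of Wilson intervals overlapped.

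The family was compared between brain and serum on few serum reads. The 3 serum libraries had 2, 3 and 1 reads of mir-29a, or 265, 276 and 126 RPM, a mean of 222 ± 83.5 (SD, n = 3). Brain stood at 7.82 times this mean in RPM. Under TMM the median log2 fold change of brain over serum was 2.15 over the 235 precursors tested. At the level of brain the 3 serum libraries together would have held 45.8 reads of mir-29a, where 6 were counted. Summed over the group, serum was at 228 RPM with an interval of 104 to 497. This interval takes in the pool median of 379 RPM and the pools from small intestine, at 245 RPM, to testes, at 457. The mature list had 0, 1 and 1 reads of miR-29a-3p.

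No serum library had a read of mir-29b or mir-29c. A count of 0 over the 26348 precursor reads of serum allows up to 114 RPM (3 reads over the group). Brain at a mean of 365 RPM of mir-29c was thus at least 3.21-fold higher than serum by this limit. Serum at that level would have held 9.62 reads. The Wilson upper limit of serum was higher, at 146 RPM, and the lowest hemisphere held 252 RPM of mir-29c. Both limits cover counting error only and not the spread between serum libraries. Brain at 150 RPM of mir-29b was at least 1.32-fold higher by the limit of 3 reads. The lowest hemisphere, at 103 RPM, lay under that limit, and the Wilson upper limit of serum, 146 RPM, nearly reached the brain mean. In the mature list the limit was 173 RPM, and miR-29c-3p at 327 RPM in brain was at least 1.89-fold higher by it. The Wilson upper limit of serum was higher, at 222 RPM, and the lowest hemisphere, at 214 RPM of miR-29c-3p, lay under it. For miR-29b-3p at 166 RPM a difference was not detectable from the summed counts.

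edgeR's quasi-likelihood test of brain against serum called mir-29a (log2 fold change 2.78, SE 0.41, adjusted p = 8.69e-05), mir-29c-1 (adjusted p = 0.0364) and mir-29c-2 (adjusted p = 0.0231), but neither mir-29b-2 (adjusted p = 0.129) nor mir-29b-3 (adjusted p = 0.126). These are 3 of the 5 members tested, where 44.7% of 235 precursors were called higher in brain. The median log2 fold change over the 235 precursors was itself 2.15, beside 2.78 for mir-29a. All 5 members passed the filter of 10 counts in 3 libraries through the brain libraries alone, so the count of calls describes the members and supports nothing. The fitted fold changes of the rows with no serum read depend on the prior count and are not given. In RefSeq, where the copies are 1 row, Mir29a (adjusted p = 0.000185), Mir29c (adjusted p = 0.00764) and Mir29b2 (adjusted p = 0.0478) were called, beside 45.6% of 215 rows. The call of Mir29b2 was lost with DESeq2 (adjusted p = 0.0796), with DESeq2 size factors (0.0954) and without any 1 serum replicate (0.105 to 0.124).

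In the mature list miR-29a-3p (adjusted p = 1.25e-06), miR-29b-3p (adjusted p = 0.00986) and miR-29c-3p (adjusted p = 0.000388) were called higher in brain, beside 52.8% of 212 rows. These arms had 0 to 2 serum reads and likewise passed the filter through brain alone. For miR-29b-3p the model's call stands on 0 reads where 2.87 would be seen at the brain's level, so the counts alone do not show a difference, and DESeq2 did not make the call (adjusted p = 0.0776). The call of mir-29c-1 was lost with DESeq2 size factors in edgeR (adjusted p = 0.0635). Without serum replicate 1 it was lost too (adjusted p = 0.0731), and without serum replicate 2 or 3 both mir-29c copies were lost (adjusted p = 0.0522 to 0.0902).

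Whether the make-up of the family in serum differed from that in brain could not be read at this depth. At the brain's proportion of 0.21 reads of mir-29c per read of mir-29a, the 6 reads of mir-29a in serum would go with 1.26 reads of mir-29c and 0.519 reads of mir-29b. Counts of 0 are within what so few reads allow, and the 2 reads of miR-29a-3p leave an upper limit of 65.8% on the miR-29c-3p share (95% Wilson interval). The lower level of mir-29a in serum thus rests on 6 reads, and no statement on the serum mix of the 3 arms can rest on them.

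Across the 15 tissues (the hemispheres averaged to 1 value) the arms varied together only in part. On the scale of log2(RPM + 1), Pearson's r was 0.603 between miR-29a-3p and miR-29b-3p, 0.562 between miR-29a-3p and miR-29c-3p, and 0.547 between miR-29b-3p and miR-29c-3p. Without the pair of tissues farthest from the median of the first arm, r was 0.327, 0.246 and 0.411. Over the 14 pools alone the 3 values were 0.355, 0.359 and 0.388, lower than with brain in each case. Without the library labelled pancreas they were 0.636, 0.683 and 0.547. Spearman's rho over the 15 tissues was 0.446, 0.607 and 0.443. The points share libraries and depth, and the values are given as a description.

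Among 290 other precursors with enough counts, the pattern most like that of mir-29a over the 15 tissues was that of mir-1843a (r = 0.872), which stood at 602 RPM in brain against a pool median of 154. Next were mir-346 (r = 0.790) and mir-874 (r = 0.786), both highest in brain, with pool medians of 0 and 6.56 RPM. The r of these precursors over the pools alone was not computed, so how far brain alone sets them is not known. mir-1843a also came first for mir-29c-1 (r = 0.765) and mir-29c-2 (r = 0.828). For the mir-29b copies the closest were let-7g (r = 0.693, mir-29b-2), highest in spleen, and mir-301a (r = 0.741, mir-29b-3), highest in thymus. These places were not firm: of the 5 members, 2 kept their closest precursor without the library labelled pancreas, and 2 with 10 RPM added in place of 1.

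Other miRNAs with reported ties to the same kinds of target were counted as lists. Of 13 tested miRNAs linked to matrix and fibrosis, 5 were higher and 3 lower in brain than in serum, where 44.7% of all precursors were higher and 18.7% lower, with a median log2 fold change of 0.48 beside 2.15 for all 235 precursors. Of 8 miRNAs reported to target DNA or histone methyltransferases, 4 were higher and 2 lower, with a median of 1.36. Against the pools, no member of either list was called, and the medians were −2.05 and −2.19 beside −0.44 for all precursors. Within these lists mir-26a was higher in brain than in serum (1.02, SE 0.24, adjusted p = 0.00259) and mir-148a lower (−1.49, SE 0.22, adjusted p = 8.69e-05). For contrast, of the 12 neuron miRNAs 10 were higher in brain than in serum. Against the pools only 7 of the 12 passed the count filter and 5 were higher, where 4.88% of all precursors were, with a median of 5.75. Of the 4 neuron miRNAs highest in mean RPM, mir-9a-1, mir-9a-2 and mir-9a-3 held 88.2, 74.8 and 161 RPM in serum. These 3 passed the filter against serum through brain alone, while mir-128-1 held 1158 RPM in serum. The counts of calls describe this list and support nothing.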

How the data were processed

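Small RNA of brain, serum and 14 pooled tissues was sequenced by the authors on a MiSeq after the TruSeq Small RNA kit. Base calls of low quality were trimmed, and reads were aligned to Rn5 with Bowtie and quantified in Partek against miRBase (release 21) and RefSeq. The values deposited by the authors are estimated counts (expected counts) of aligned reads per miRNA, not normalized, in 3 stacked lists. Whether strand was used in counting is not given in the sources used here.

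RPM were computed within each list. Wilson intervals (95%) and limits of 3 reads cover counting error only. Estimated counts were rounded and tested with edgeR 4.0.16 (R 4.3.3; TMM, quasi-likelihood, at least 10 counts in at least 3 libraries, Benjamini-Hochberg over the list, threshold 0.05), with DESeq2 1.42.0 as an alternative. The tests were tried on simulated counts. SEs are the fold change divided by the root of F. Brain and serum replicates differed by more than sampling noise (chi-square per degree of freedom 6.53 to 58.4). Nothing says that they came from separate preparations beyond 3 animals, so p-values measure the spread between these samples. A pool has 1 library, and the brain sum was assumed to vary like the pools.

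All members are named. Likeness took the 3 precursors with the highest r of log2(RPM + 1), and list members named were among the 4 highest in mean RPM. The members and lists were chosen with earlier results of these data known. The planned permutation test of the miR-29c-3p to miR-29a-3p ratio between brain and serum, for which 3 against 3 libraries allow no p under 0.1, was not run, since serum had no miR-29c-3p read. Alternatives covered the scaling, filter, tool, annotation, replicate block and each library left out.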

Additional observations from a re-analysis of the deposited data

How the results depend on the processing

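Over the alternatives run, no log2 fold change of a member tested in the main fit changed sign. For the mir-29b and mir-29c rows against serum this could not have come out otherwise, since they had no serum read. Without a count filter mir-29b-1, left as uncertain above and not tested in the main fit, stood at −2.41 against the pools. Against serum, the 3 calls among member precursors became 2 with a replicate block (mir-29c-1, adjusted p = 0.0603, lost) and with DESeq2 size factors in edgeR (mir-29c-1, adjusted p = 0.0635, lost), and 1 to 2 without a serum replicate. Without a brain replicate no member could pass in 3 libraries; with 10 counts in 2 libraries, an alternative chosen after seeing the data, 2 to 3 member precursors were called. The replicate numbers do not pair the samples by the labels, and same-numbered brain and serum libraries deviated together with r of 0.10, −0.11 and −0.08. The 3 calls among mature arms stayed at 3 with the replicate block and without a serum replicate, and were 2 to 3 without a brain replicate at 10 counts in 2 libraries. Brain against serum gave 149 calls among precursors and 142 among mature rows (141 and 125 with the replicate block), 46 and 26 with 10 counts in every library, where no member was tested, and 55 to 141 and 36 to 128 with 1 replicate left out (up to 146 and 151 where the filter was also 10 counts in 2 libraries). Mir29b2 was not called with the replicate block (adjusted p = 0.0832).

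Against the pools, 12 precursors and 7 mature rows were called. DESeq2 called 50 and 45, no count filter 44 and 50, 10 counts in every library 1 and 1, and hemispheres as 3 libraries 126 and 128. With 1 library left out the counts ran over 9 to 21 and 3 to 15, highest without skeletal muscle (21 and 15) and lowest for mature rows without large intestine (3) or stomach (4). Members called were 0 except with hemispheres as 3 libraries, where 2 precursors and 2 of the 3 RefSeq rows tested were called, and with DESeq2, where 1 mature arm was. The log2 of brain over the pool median for the summed family was 1.98, 1.09 under TMM and 0.19 under DESeq2 size factors. Of 15 likeness entries, 8 stayed with 10 RPM added and 10 without the library labelled pancreas. The ratio of miR-29c-3p to miR-29a-3p in serum, with its alternatives, was not run. Serum held 26348 precursor reads in all, which limits what could be detected there.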
